A study of Mus musculus with 6 samples.

Results

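Transcripts of 10 genes of amino acid uptake, of 28418 genes in the deposited tables, were examined: Slc7a5, Slc3a2, Slc7a11, Slc1a5, Slc1a4, Slc38a1, Slc38a2, Slc7a1, Slc7a6 and Slc6a9. They were given as a list of names, and each name matched 1 mouse gene identifier in the GENCODE M21 annotation. The cells were 4T1, a mammary carcinoma line from mouse, labelled as epithelial cells, that serves as a model for breast cancer of the triple-negative kind. In all, 3 libraries came from cells at 0 nM of the fluorinated surfactant perfluorooctane sulfonate (PFOS) and 3 from cells at 100 nM PFOS, both after 35 passages. The labels name no vehicle for the 0 nM cells and no separate cultures for the 3 libraries of a group. A p-value therefore reflects the spread among these libraries alone, and that spread may be technical. The question put by the design is whether long culture with PFOS changed transcript levels, here those of the transporters that bring amino acids into the cell. As no separate cultures are named, an effect of the dose cannot be told apart from other differences between cultures after 35 passages.

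Amino acids cross the plasma membrane on carriers that include exchangers, which swap one amino acid for another, and sodium-coupled carriers, which concentrate them. In the best studied arrangement for tumour cells, the sodium-coupled carriers load the cell with glutamine and small neutral amino acids, and the exchanger of Slc7a5 and Slc3a2 spends them to bring in leucine and other essential amino acids, which the kinase complex mTORC1 senses at the lysosome. When amino acids run short, the kinase GCN2 phosphorylates the translation factor eIF2, the transcription factor ATF4 is translated, and ATF4 binds C/EBP-ATF response elements at genes of amino acid synthesis and uptake, several of these transporters among them.

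FPKM summed to 306716 to 309381 per library. One library stood apart in its T cell and natural killer cell markers, replicate 3 at 100 nM. All 10 T cell and natural killer cell markers were there at more than 5 times their highest value elsewhere, with a summed level of 24.3 FPKM against 0 to 0.09 FPKM at 0 nM and 0.02 to 0.1 FPKM in the other libraries at 100 nM; the defining gene Cd3e was at 0.66 FPKM there and at 0 in the other 5. Epithelial markers, keratins Krt8 and Krt18 foremost, summed to 718 to 719 FPKM at 0 nM and 754 to 806 FPKM at 100 nM. Of these 8, Cdh1, Krt19 and Krt7 were higher past the threshold defined in the next paragraph. That is 3 of 8, against 1.69% higher of all genes tested. Krt8 and Krt18 did not pass. Markers of macrophages and other leukocytes summed to 154 to 193 FPKM at 0 nM (none of 9 at 0 in every library). At 100 nM they summed to 153 FPKM in replicate 1, 296 FPKM in replicate 2 and 302 FPKM in replicate 3. Fibroblast markers summed to 5.48 to 5.69 FPKM at 0 nM and 5.85 to 8.97 FPKM at 100 nM. Endothelial markers summed to 0.07 to 0.19 and 0.08 to 0.42 FPKM, with Emcn at 0 in every library. In replicate 3 at 100 nM, 1 marker of each of these lists was also above 5 times its highest other value. They were Ptprc of leukocytes (1.31 FPKM), Dcn of fibroblasts (2.26 FPKM) and Tek of endothelial cells (0.03 FPKM). Slc3a2, Slc1a5, Slc6a9 and Slc7a11 had their highest value in replicate 3 at 100 nM. The part of other cell types in those values was not tested. In bulk RNA, fewer cells of a type and less RNA per cell cannot be told apart. The difference of each of the 10 transporters is given with and without that library.

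None of the 10 transporters differed between the doses past the threshold used (limma on log2(FPKM + 1), 100 nM minus 0 nM, Benjamini-Hochberg adjusted p under 0.05 over all 11741 genes tested). FPKM is a fragment count divided by the length of the transcript and by the size of the library. A gene was tested when its mean over the 6 libraries was at least 1 FPKM, and all 10 were. Across all genes tested 487 passed, 4.15%, so the count of 0 of 10 is near this background. At an unadjusted limma p under 0.05 there was 1 of 10, Slc38a2, against 20.7% of all genes tested. Groups without overlapping values were seen for 1 of 10, again Slc38a2, against 26.9% of all genes tested. The mean was higher at 100 nM for 3 members and lower for 7, with a median difference of -0.03 on the log2(FPKM + 1) scale and 0.01 over all genes tested. The 10 were also 0 of 10 past the threshold under each of the 18 alternatives run, among them without replicate 3 at 100 nM.

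Promoter sequence was available for 7 of the 10 genes in the RefSeq table used (GRCm38.p6, 250 bases before to 50 after each start site). Slc7a5, Slc1a5 and Slc38a1 had no entry. The core letters of the C/EBP-ATF response element, TGATGNAA on either strand, occurred in 2 of the 7, Slc7a11 and Slc1a4, against 4.51% of the 27025 genes with an entry. Counted by window, 2 of the 11 windows of these 7 genes held the letters, against 3.97% of 32851 windows of all genes. The stretches holding the letters are shown beside those of Asns, Chac1 and Got1. These 3 were picked after their values were seen, as genes of amino acid metabolism that were lower at 100 nM and hold the same letters. The other 5 genes past the threshold in the related lists described further on (Ddit4, Gpt2, Odc1, Psat1 and Sesn3) had entries without the letters. Each runs 5′ to 3′ on the strand of its gene, and capitals mark the matched letters.
Slc7a11 (chr3:50443639-50443693, minus strand): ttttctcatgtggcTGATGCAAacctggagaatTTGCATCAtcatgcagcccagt
Slc1a4 (chr11:20332696-20332731, minus strand): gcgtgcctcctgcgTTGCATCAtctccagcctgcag
Asns (chr6:7693211-7693246, minus strand): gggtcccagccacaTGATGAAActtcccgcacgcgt
Chac1 (chr2:119351035-119351070, plus strand): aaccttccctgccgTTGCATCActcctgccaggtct
Got1 (chr19:43524686-43524721, minus strand): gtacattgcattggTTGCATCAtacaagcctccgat
The Slc7a11 stretch holds 2 matches facing each other, beginning at positions -66 and -47 from the start site (position 0). The single match of Slc1a4 begins at -4 and crosses the start site, that of Asns at -23, that of Chac1 at -193 and that of Got1 at -102. A match describes letters in this window and is not a site shown to be bound.

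The levels of the 10 transcripts spanned 50.9-fold, from 69.2 FPKM for Slc7a5 to 1.36 FPKM for Slc7a11 (means over the 6 libraries). Because FPKM is per transcript length, levels can be set side by side between genes. The order was Slc7a5, Slc3a2 at 49.8 FPKM, Slc1a5 at 34.8, Slc38a2 at 29.7, Slc7a6 at 28.4, Slc1a4 at 11.7, Slc7a1 at 11.5, Slc38a1 at 9.46, Slc6a9 at 3.085 and Slc7a11. Neighbours in this order had separate ranges over the 6 libraries except 2 pairs, Slc38a2 with Slc7a6 and Slc1a4 with Slc7a1. Slc7a5 stood at the 94.7th percentile of the genes tested by level and Slc7a11 at the 5.34th. Together the 10 transcripts summed to 246 to 253 FPKM per library at 0 nM and to 246 to 251 FPKM at 100 nM.

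**Figure D1:**
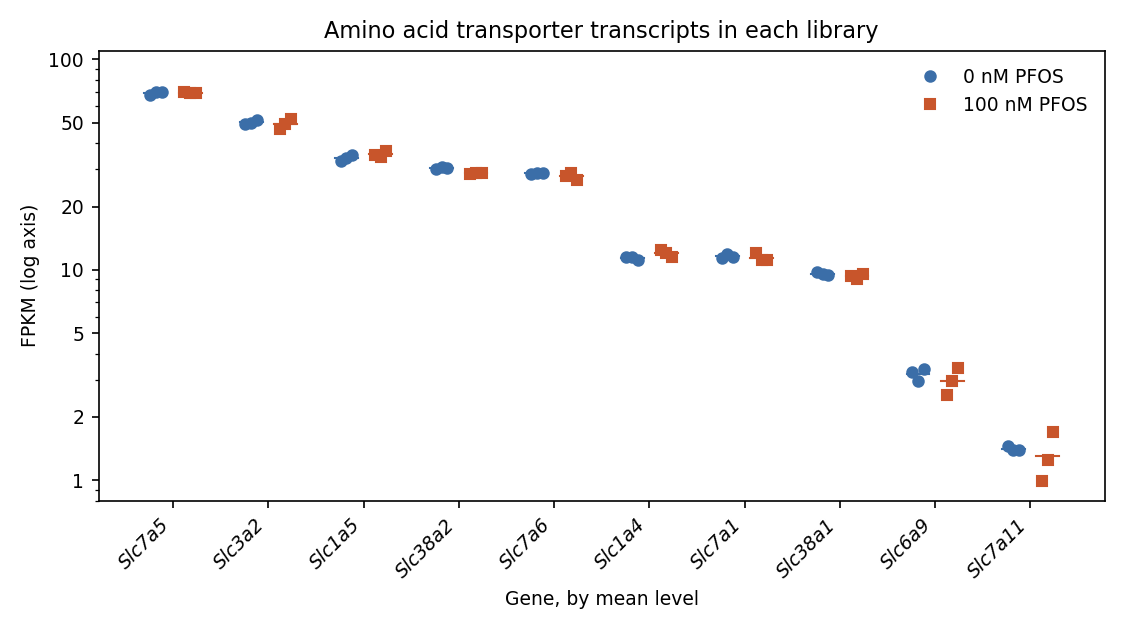
FPKM (log axis) of the 10 transporter genes, ordered by mean level; circles are the 3 libraries at 0 nM, squares the 3 at 100 nM PFOS, and short lines the group means. Circles and squares lie at nearly the same height for each gene, and the squares of Slc7a11 spread most, from 0.99 to 1.69 FPKM.

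Among the heteromeric exchangers, the heavy chain is encoded by Slc3a2 (ENSMUSG00000010095, chromosome 19, 8706882 to 8723369 of GRCm38, the build of all positions here), a single-pass glycoprotein also known as CD98 that carries several light chains to the cell surface. Slc3a2 read 49.13, 49.90 and 51.73 FPKM at 0 nM and 46.78, 49.22 and 51.94 FPKM in replicates 1, 2 and 3 at 100 nM. The 100 nM libraries held both its lowest and its highest value, so the groups overlapped. The fitted difference, in log2(FPKM + 1) as for every difference given here, was -0.03 ± 0.04 (SE) with a 95% interval of -0.13 to 0.07 (limma adjusted p = 0.760). Without replicate 1 at 100 nM the difference was 0.01, and without replicate 3 at 100 nM, the library with T cell transcripts, it was -0.06 (limma adjusted p = 0.370).

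Slc7a5 (ENSMUSG00000040010, chromosome 8, 121881150 to 121907694) encodes the light chain of the leucine-importing exchanger LAT1. It read 67.89, 69.67 and 69.83 FPKM at 0 nM and 69.97, 68.90 and 69.22 FPKM at 100 nM. The groups overlapped, and the whole range of the 6 libraries came to 3.00% of the mean. The difference was 0.0049 ± 0.02 (SE), with a 95% interval of -0.04 to 0.05, that is -2.98% to 3.77% of FPKM + 1 (limma adjusted p = 0.922), and it was 0.0063 without replicate 3 at 100 nM (limma adjusted p = 0.906). Intervals here are for single genes and not adjusted for the number of genes. Its spread within groups was at the 3.44th percentile of the genes tested, so this is one of the members measured most tightly. Slc7a5 overlaps the annotated gene Gm20388 on the other strand.

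Slc7a6 (ENSMUSG00000031904, chromosome 8, 106168857 to 106198706) encodes a light chain that exports basic amino acids in exchange for neutral ones. Values were 28.65, 28.79 and 28.97 FPKM at 0 nM and 27.98, 28.90 and 26.88 FPKM at 100 nM. Only 2 of the 3 libraries at 100 nM lay below all 3 at 0 nM, and the difference was -0.04 ± 0.03 (SE; limma adjusted p = 0.471). Without replicate 3 at 100 nM, its lowest library, the difference was -0.02 (limma adjusted p = 0.756).

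Slc7a11 (ENSMUSG00000027737, chromosome 3, 49892526 to 50443614) encodes the light chain that takes up cystine in exchange for glutamate and so feeds glutathione synthesis. It was the lowest of the 10, at 1.45, 1.39 and 1.40 FPKM at 0 nM and 0.99, 1.25 and 1.69 FPKM in replicates 1, 2 and 3 at 100 nM. The 0 nM libraries lay within the range of the 100 nM libraries. The SD at 0 nM was 0.0321 FPKM (n = 3) and at 100 nM 0.354 FPKM (n = 3). The difference was -0.07 ± 0.11 (SE), with a 95% interval of -0.35 to 0.20, the widest of the 10 (limma adjusted p = 0.765). The sign rested on single libraries: the difference was -0.19 without replicate 3 at 100 nM (limma adjusted p = 0.273) and 0.03 without replicate 1 at 100 nM (limma adjusted p = 0.906). Several annotated genes overlap Slc7a11, on both strands, and no source used here says whether counting used the strand.

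Among the members, the light chains Slc7a5, Slc7a6 and Slc7a11 together stood at 1.98 ± 0.0352 times the Slc3a2 level at 0 nM (SD, n = 3). At 100 nM they stood at 2.00 ± 0.116 times that level (SD, n = 3), in FPKM. Light chains outside the members were not counted. The ratio was 2.12 in replicate 1 and 1.88 in replicate 3 at 100 nM, on either side of the 1.94 to 2.00 seen at 0 nM. Over the 6 libraries Slc3a2 ranged from 46.8 to 51.9 FPKM and the sum of these light chains from 97.8 to 100.2 FPKM.

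Of the sodium-dependent neutral exchangers, Slc1a5 (ENSMUSG00000001918, chromosome 7, 16781340 to 16798274) encodes ASCT2, a main route of glutamine entry. It read 33.09, 33.99 and 35.03 FPKM at 0 nM and 35.29, 34.49 and 36.65 FPKM at 100 nM. At 100 nM 2 of the 3 values were above all values at 0 nM. The difference was 0.06 ± 0.03 (SE), with a 95% interval of -0.02 to 0.14 (limma adjusted p = 0.371), and it was 0.03 without replicate 3 at 100 nM (limma adjusted p = 0.609).

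Its paralogue Slc1a4 (ENSMUSG00000020142, chromosome 11, 20302180 to 20332713) encodes ASCT1, which exchanges serine, alanine and other small neutral amino acids. Slc1a4 read 11.48, 11.54 and 11.09 FPKM at 0 nM and 12.40, 12.05 and 11.51 FPKM at 100 nM. The groups overlapped by the single value of replicate 3 at 100 nM. The difference was 0.07 ± 0.04 (SE), with a 95% interval of -0.01 to 0.15 (limma adjusted p = 0.323). Without that replicate it was 0.10 (limma adjusted p = 0.205). The 2 genes whose promoters hold the response element letters thus had means on opposite sides of 0, higher for Slc1a4 and lower for Slc7a11, with neither past the threshold. Without replicate 1 at 100 nM both were higher, by 0.05 for Slc1a4 and 0.03 for Slc7a11.

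Slc38a1 and Slc38a2 encode SNAT1 and SNAT2, sodium-coupled carriers of glutamine and small neutral amino acids, and the second is a textbook case of a transporter raised when amino acids are withdrawn. The 2 genes are neighbours on chromosome 15, both on the minus strand (Slc38a1, ENSMUSG00000023169, 96571418 to 96642913; Slc38a2, ENSMUSG00000022462, 96687392 to 96699730), 44.5 kb apart with no gene of the table between them. Slc38a2 read 30.19, 30.83 and 30.51 FPKM at 0 nM and 28.70, 28.96 and 28.76 FPKM at 100 nM. All 3 libraries at 100 nM lay below all 3 at 0 nM, and the spread within each group was small, at percentile 0.792 of the genes tested. The mean was 30.5 ± 0.320 FPKM at 0 nM and 28.8 ± 0.136 FPKM at 100 nM (SD, n = 3 each), a change of -5.58%. The difference was -0.08 ± 0.02 (SE), with a 95% interval of -0.13 to -0.03. It did not pass (limma adjusted p = 0.0884). Over the 18 alternatives the limma adjusted p ran from 0.0722 to 0.272 and the difference from -0.09 to -0.07. Without replicate 3 at 100 nM they were 0.161 and -0.08.

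Slc38a1 read 9.78, 9.54 and 9.46 FPKM at 0 nM and 9.30, 9.09 and 9.59 FPKM at 100 nM. The groups overlapped through replicate 3 at 100 nM, and the difference was -0.04 ± 0.03 (SE; limma adjusted p = 0.558). Without that library it was -0.06 (limma adjusted p = 0.429). The ratio of Slc38a2 to Slc38a1 was 3.09 to 3.23 at 0 nM and 3.00 to 3.19 at 100 nM, in FPKM. Another gene of the family on the same strand, Slc38a4, lies 295 kb beyond Slc38a2 and was at 0.12 FPKM or less in every library. Within 2.5 Mb of Slc38a2 on either side, 24 of 43 other genes tested had lower means at 100 nM and 1 passed the threshold, with a median difference of -0.02.

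Slc7a1 (ENSMUSG00000041313, chromosome 5, 148327410 to 148399904) encodes the main importer of arginine and lysine. It read 11.40, 11.87 and 11.47 FPKM at 0 nM and 11.97, 11.14 and 11.11 FPKM at 100 nM. Replicate 1 at 100 nM was the highest of the 6 and the other two the lowest, and the difference was -0.02 ± 0.04 (SE; limma adjusted p = 0.805). It was -0.0035 without replicate 3 at 100 nM (limma adjusted p = 0.973) and -0.05 without replicate 1 at 100 nM (limma adjusted p = 0.45).

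Slc6a9 (ENSMUSG00000028542, chromosome 4, 117834506 to 117875198) encodes the sodium- and chloride-coupled glycine transporter GLYT1. It read 3.28, 2.96 and 3.37 FPKM at 0 nM and 2.54, 2.96 and 3.40 FPKM at 100 nM. The 100 nM libraries again held both the lowest and the highest value, and the difference was -0.09 ± 0.09 (SE), with a 95% interval of -0.30 to 0.12 (limma adjusted p = 0.625). Without replicate 3 at 100 nM it was -0.17 (limma adjusted p = 0.302), and without replicate 1 at 100 nM, the lowest library, it was -0.0087 (limma adjusted p = 0.963). Slc6a9 overlaps genes on the other strand, among them B4galt2 and Ccdc24.

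For the 8 members above 9 FPKM, the 95% intervals lay between -8.60% (Slc38a2) and 11.3% (Slc1a4) of FPKM + 1. A larger change of any one of these 8 is outside its own interval. These intervals reflect the spread among these libraries alone, which may be technical. They do not cover a spread between separate cultures, so they set no limit on the effect of the dose. For Slc6a9 and Slc7a11 the intervals were wider, -18.6% to 8.71% and -21.3% to 14.6%. The median absolute difference was 0.05 for the 10 and 0.06 for all genes tested, and the median SD within groups was 0.04 and 0.06 on the log2(FPKM + 1) scale. The SD was larger at 100 nM than at 0 nM for 8 of the 10, against 54.5% of all genes tested.

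**Figure D2:**
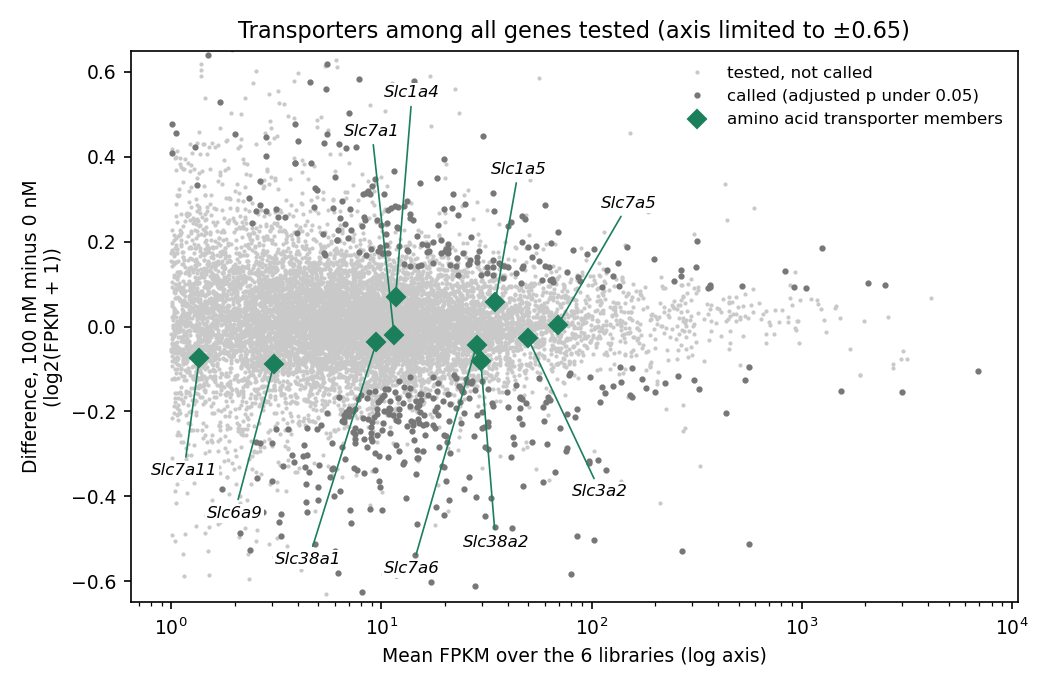
Difference (100 nM minus 0 nM, log2(FPKM + 1)) against mean FPKM (log axis) for the 11741 genes tested; dark points are the 487 called, diamonds the 10 transporters, and 68 other genes lie beyond the axis limits of 0.65 either way. The diamonds stay between -0.09 and 0.07, inside the cloud of uncalled genes.

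Other amino acid carriers of the plasma membrane mostly had low transcript levels in these cells. Of 26 listed, 22 were in the tables and 4 passed the filter of 1 FPKM: Slc6a6, Slc43a2, Slc36a4 and Slc7a7. Of these 4, 0 passed the threshold, against 4.15% of all genes tested, and 0 passed under each of the 18 alternatives. At an unadjusted limma p under 0.05 there were 2 of 4, against 20.7% of all genes tested. Slc6a6, the taurine transporter, was the highest, at 19.95, 20.91 and 21.14 FPKM at 0 nM and 22.57, 22.99 and 21.95 FPKM at 100 nM. The groups did not overlap, and the difference was 0.12 ± 0.03 (SE; limma adjusted p = 0.0978). Slc43a2, a facilitative carrier of large neutral amino acids, read 0.95, 0.88 and 0.88 FPKM at 0 nM and 1.02, 1.21 and 1.38 FPKM at 100 nM, without overlap but at the edge of the filter (limma adjusted p = 0.220), and without replicate 3 at 100 nM its mean was under the filter. The other 18 had means of at most 0.728 FPKM.

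The GCN2 and ATF4 amino acid response, which acts on several of the 10 transporters, contained genes past the threshold. Of 18 tested, 3 were lower and 1 higher at 100 nM (background 2.46% lower and 1.69% higher), with a median difference of -0.04 (0.01 over all genes tested). Earlier results of these data were known when this list was written, so its direction is not independent evidence. Asns, which makes asparagine from aspartate and glutamine, read 92.06, 90.24 and 91.04 FPKM at 0 nM and 80.66, 76.82 and 80.93 FPKM at 100 nM. It fell by 0.20 ± 0.03 (SE) on the log2(FPKM + 1) scale (limma adjusted p = 0.0144). Chac1, which degrades glutathione, fell from 7.32 ± 0.229 to 5.36 ± 0.278 FPKM (SD of 3 libraries each; adjusted p = 0.0087 by limma). Psat1, of serine synthesis, fell from 81.9 to 75.8 FPKM (limma adjusted p = 0.0431) and is named outside the naming rule because the list has only 4 calls. Ddit4, an inhibitor of mTORC1, rose from 44.0 ± 2.61 to 52.6 ± 0.335 FPKM (SD of 3 libraries each; adjusted p = 0.0298 by limma). Atf4 itself read 95.32, 89.66 and 94.30 FPKM at 0 nM and 87.91, 89.33 and 89.20 FPKM at 100 nM (limma adjusted p = 0.232). Each of the 6 libraries, left out alone, lowered the list's count from 4 to 1 or 2, and it was 0 without replicate 3 of both groups. The call was lost in 2 of 18 alternatives for Chac1, 5 for Asns, 9 for Ddit4 and 11 for Psat1.

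The 95% intervals of the 4 called response genes were -0.26 to -0.13 for Asns, -0.49 to -0.28 for Chac1, -0.16 to -0.06 for Psat1 and 0.15 to 0.35 for Ddit4. The 2 transporters with the smallest SE were Slc7a5, at -0.04 to 0.05, and Slc38a2, at -0.13 to -0.03. The interval of Slc38a2 overlapped that of Psat1. The difference between a transporter's change and that of a response gene was not tested. The response element letters were found for 6 of the 19 genes of this list, against 4.51% of all genes with a promoter entry. They were Atf3, Trib3, Asns, Chac1, Nupr1 and Vldlr, and Vldlr was under the filter. Of the 5 tested 2 passed the threshold, Asns and Chac1, against 4.15% of all genes tested. Both had been picked after their values were seen, so this count is not independent evidence.

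**Figure D3:**
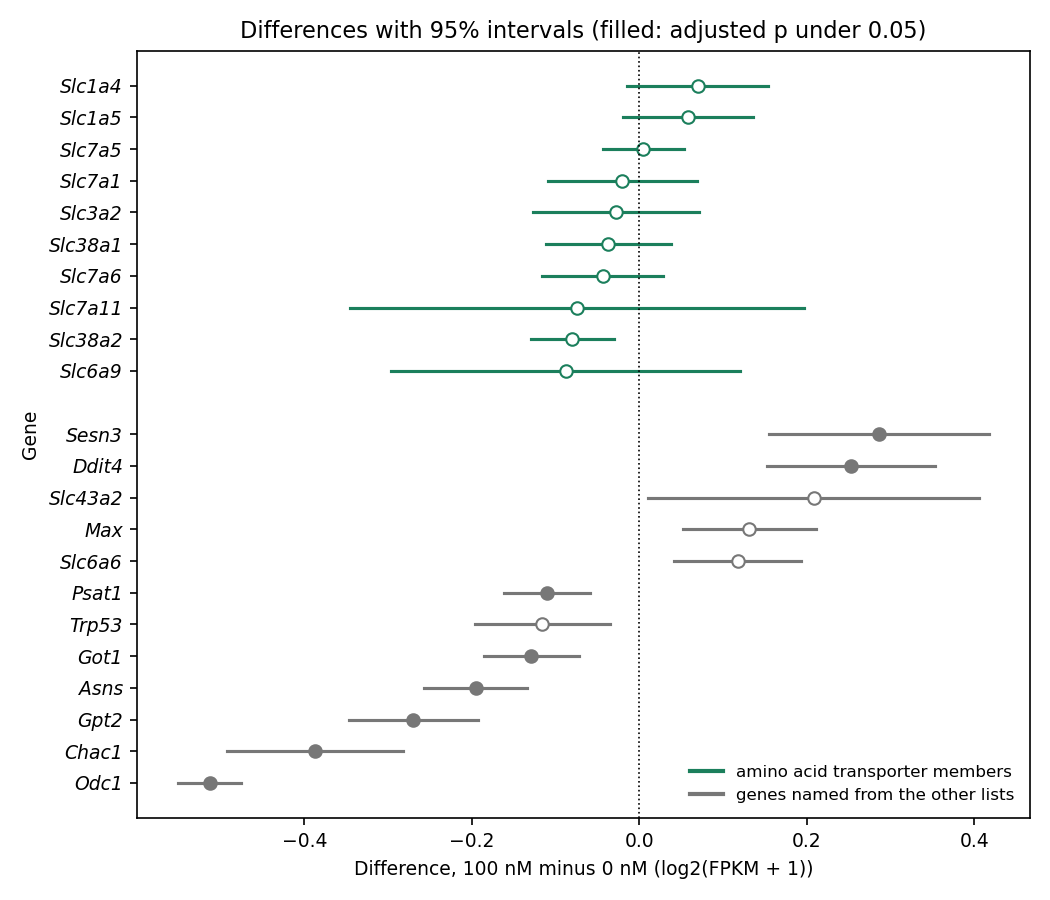
Difference (100 nM minus 0 nM, log2(FPKM + 1)) with its 95% interval for the 10 transporters and for the 12 genes named from the other lists; filled circles passed an adjusted p under 0.05. All 10 transporter circles are open and 9 intervals cross 0, that of Slc38a2 being the exception.

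Enzymes that use the transported amino acids had 4 lower and 0 higher of 24 tested (background 2.46% and 1.69%; median difference -0.01). Odc1, which makes the polyamine putrescine from ornithine and so lies downstream of arginine uptake, fell from 657 to 460 FPKM, a difference of -0.51 ± 0.02 (SE; limma adjusted p = 0.000188), while the arginine importer Slc7a1 stood at 11.6 and 11.4 FPKM. Gpt2, the mitochondrial alanine aminotransferase, fell from 9.99 ± 0.310 to 8.12 ± 0.0929 FPKM (SD of 3 libraries each; adjusted p = 0.0106 by limma). The third was Asns. Got1, the cytosolic aspartate aminotransferase, fell from 28.3 to 25.8 FPKM (limma adjusted p = 0.0377) and is likewise named outside the rule. Gclc and Gclm, of glutathione synthesis, read 14.4 and 12.2 FPKM at 0 nM. At 100 nM they read 15.8 and 12.2 FPKM (limma adjusted p = 0.0911 and 0.919). The call was lost in 0 of 18 alternatives for Odc1, 3 for Gpt2 and 10 for Got1. The list's count was 1 without replicate 1 at 0 nM, 2 without replicate 2 or 3 at 0 nM, and 1 without replicate 3 of both groups.

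Of the lysosomal carriers and the amino acid sensors of mTORC1, 1 of 27 tested was higher and 0 lower (background 1.69% and 2.46%; median difference 0.02). Sesn3, one of the sestrins that restrain mTORC1, read 2.20, 2.29 and 2.35 FPKM at 0 nM and 3.13, 3.11 and 2.77 FPKM at 100 nM (limma adjusted p = 0.0415), a call lost in 9 of 17 alternatives. It was lost without each library in turn except replicate 3 at 100 nM. Among 12 genes that regulate transporter transcripts or proteins, 0 passed, against 4.15% of all genes tested. At an unadjusted limma p under 0.05 there were 4 of 12, against 20.7% of all genes tested. Over the alternatives 0 to 1 passed, the 1 being the ubiquitin ligase gene Nedd4 without replicate 3 at 100 nM. The lowest p-values belonged to Max, the partner of Myc, at 22.9 and 25.2 FPKM (limma adjusted p = 0.0818), and to Trp53, at 14.85 and 13.6 FPKM (limma adjusted p = 0.118). Myc, which drives Slc7a5 and Slc1a5 in many tumours, read 125.00, 122.58 and 119.80 FPKM at 0 nM and 121.32, 125.77 and 121.23 FPKM at 100 nM, and Nfe2l2, which drives Slc7a11, read 24.2 and 24.4 FPKM (limma adjusted p = 0.954 and 0.876).

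Within the 100 nM group the libraries were not alike. Replicate 1 was the lowest and replicate 3 the highest of the 3 for 3 of the 10 transporters, Slc3a2, Slc6a9 and Slc7a11, and for 8 of the 18 tested genes of the GCN2 and ATF4 list, against 18.3% of all genes tested. The 8 included Atf5, at 4.56, 5.54 and 6.18 FPKM, Ddit3, at 2.70, 3.38 and 4.32 FPKM, and Trib3, at 8.23, 8.61 and 9.40 FPKM in replicates 1, 2 and 3. Replicate numbers name libraries and carry no order, and this pattern was noticed after the values were seen.

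**Figure D4:**
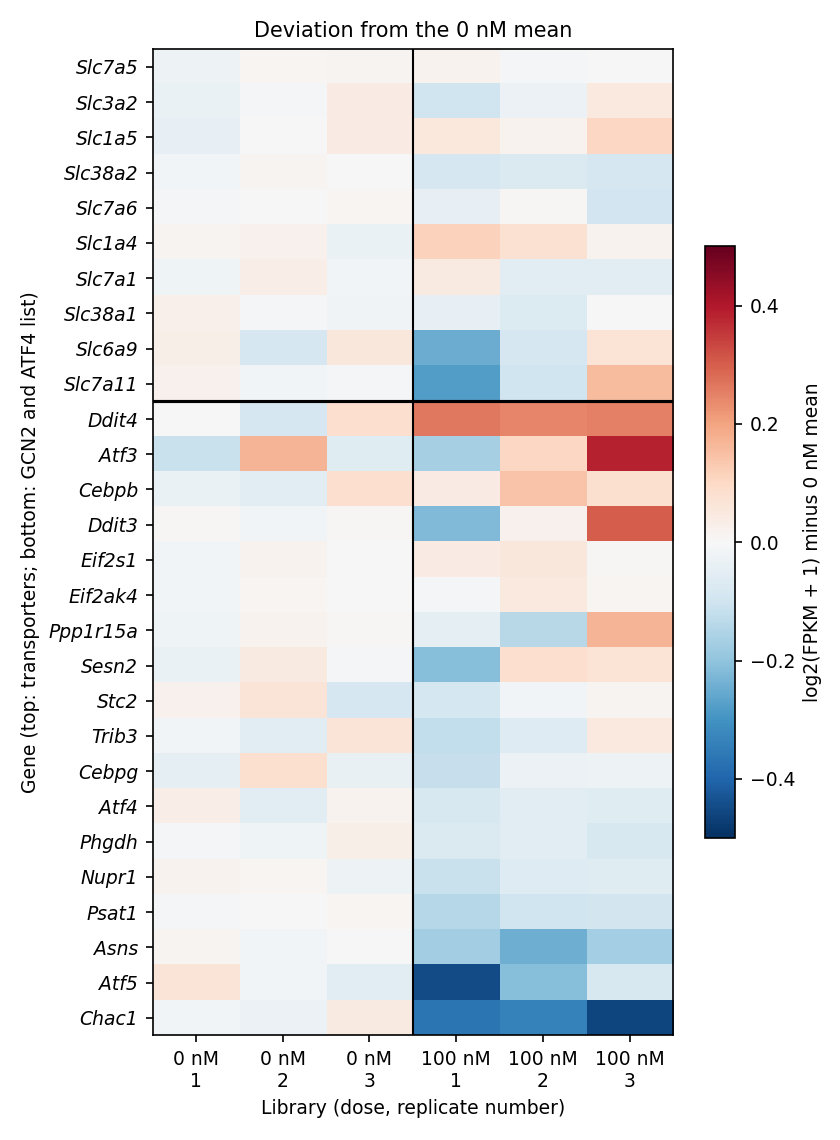
Deviation of log2(FPKM + 1) from the 0 nM mean in each of the 6 libraries (columns) for the 10 transporters, above the line, and the 18 tested genes of the GCN2 and ATF4 list, below it; red is higher and blue lower. Slc6a9 and Slc7a11 are blue in replicate 1 and red in replicate 3 at 100 nM, while Asns and Chac1 are blue in all 3 libraries at 100 nM.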

How the data were processed

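Poly(A) RNA of 6 4T1 libraries was sequenced in pairs from strand-marked (dUTP) libraries, per the labels' protocols. The deposited values are FPKM per gene, written to 2 decimals, 1 file per library; fastp, HISAT2 and StringTie and the builds GRCh38 and mm10 are named in the submitters' processing notes, with no roles or versions. Of 28418 gene identifiers, 28350 were in GENCODE M21 (GRCm38) and 25640 had its coordinates, so positions are GRCm38. The files hold no read counts: at most 29.0% of low values examined lay within 0.1 of a whole multiple of 1 fragment, so reads were not recovered and depth is unknown; precision rests on the replicates.

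The test was 2-sided limma-trend (limma 3.58.1, R 4.3.3) on log2(FPKM + 1), a scale that understates changes of low genes. It covered genes averaging 1 FPKM or more across libraries. The test was also run on simulated data with independent normal noise on the log2 scale. Such data cannot show how it behaves with technical replicates or with transcripts of other cells in a single library. The members and lists were chosen with earlier results of these data known. Named are all members, the 3 called genes of each other list with the smallest p or, with none called, the 2 genes with the smallest p, and markers that check the label or stand above 5 times the highest other sample; other names were chosen after values were seen. Alternatives covered pseudocount, filter, scaling, moderation, the replicate number as a block, gene type and left-out libraries. At most 6.59% of 31-base words of any member (Slc38a1) occur in transcripts of other genes. Python 3.11.15, pandas 2.3.3, scipy 1.17.1 and matplotlib 3.10.9 were used. One gene of the enzyme list is not reported here.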

Additional observations from a re-analysis of the deposited data

How the results depend on the processing

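All 10 transporters stayed outside the threshold under each of the 18 alternatives. The direction of 7 was the same under all alternatives run for each; those of Slc7a5, Slc3a2 and Slc7a11 changed sign when 1 library was left out, with differences of -0.0079 to 0.0121, -0.065 to 0.00899 and -0.190 to 0.0278 over the 6 libraries left out. The number of genes past the threshold among all tested was 487; it was 204 with no filter on low values, 294 with no mean trend, 91 without replicate 3 of both groups and 122 to 290 when 1 library was left out, each of the 6 moving it by over 1.5 times. Same-numbered libraries of the 2 groups did not deviate together (correlation of -0.05 to 0.01 in 3 pairs, none over 0.1). The labels do not say whether equal numbers share a culture or day, and this correlation cannot exclude it. With the replicate number as a block 58 genes passed, none of them among the 10. Slc6a9 and Slc7a11 could not be fitted with the filter of 5 FPKM. The cause of these shifts was not tested. The unknown depth limits Slc7a11 and Slc6a9 most, the 2 lowest members.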

Other observations

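Solute carrier genes as a whole, a family taken by symbol after the data were seen, gave a similar picture. Of 159 tested, 5 passed the threshold (limma adjusted p under 0.05), 3.14% against 4.15% of all genes tested, 4 lower and 1 higher at 100 nM. None of the 5 is an amino acid transporter of the plasma membrane. Slc44a2, a choline transporter, rose from 7.80 ± 0.195 to 9.93 ± 0.329 FPKM (SD of 3 libraries each; adjusted p = 0.00853 by limma). Slc30a4, a zinc exporter, fell from 26.6 ± 0.324 to 23.0 ± 0.642 FPKM (SD of 3 libraries each; adjusted p = 0.0155 by limma). Slc25a33, a mitochondrial pyrimidine nucleotide carrier, fell from 8.25 to 6.66 FPKM, Slc12a4, a potassium-chloride cotransporter, from 28.0 to 25.4 FPKM and Slc35a4 from 20.9 to 18.4 FPKM (limma adjusted p = 0.0485, 0.0492 and 0.0414). For 45 of the 159 the lowest value of 1 group lay above the highest of the other, against 26.9% of all genes tested.

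Mycn, a relative of Myc, was uneven between libraries, at 0.58, 1.30 and 1.59 FPKM at 0 nM and 0.35, 0.07 and 5.57 FPKM at 100 nM. Txnip, which responds to glucose and amino acids, ranged from 11.58 to 13.09 FPKM in 5 libraries and reached 21.22 FPKM in replicate 3 at 100 nM. Both high values lie in the library that held T cell transcripts, and the part of those cells was not tested.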
